A study of Mus musculus with 4 samples.

Results

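The cytosolic ribosomal protein genes were taken as the protein-coding RefSeq genes of mouse build mm10 whose symbol is Rpl or Rps followed by a number (with at most 1 letter and 1 more digit), or is Rplp0 to Rplp2 or Rpsa. This rule found 84 of 21887 protein-coding genes, 52 for the large (60S) and 32 for the small (40S) ribosomal subunit, and it used no measured value. Both conditions were C57BL/6 double-negative thymocytes, which stem cells of the blood system had formed in culture on OP9-DL1 stroma with IL-7 and Flt-3L by the DN3 stage. The control cells received DMSO and the inhibitor cells A939572, which blocks the fatty acid desaturase SCD1. Dimethylated lysine 79 of histone H3 (H3K79me2) was mapped by chromatin immunoprecipitation and sequencing, with 1 library per condition, so a difference between the conditions has no replicate check and no p-value. Of the 4 samples, the 2 input libraries are not analysed here. Not given in the sources used here: inhibitor dose, and how many animals or cultures each library came from.

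Ribosomal proteins assemble with ribosomal RNA into the particle that translates mRNA, and their genes are transcribed at a high rate in nearly every growing cell. They are short genes, many of their introns carry small nucleolar RNAs (snoRNAs), and their mRNAs begin with a 5′ terminal oligopyrimidine tract (5′ TOP) through which mTOR and LARP1 regulate translation. H3K79me2 is laid down by DOT1L behind the start of transcribed genes. In early T cells the ribosomal protein Rpl22 is known to be needed for the development of αβ T cells, whereas most other ribosomal proteins are needed by all cells.

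The values are the authors' peak calls, in 1 list for the control library (the DMSO list) and 1 for the inhibitor library (the A939572 list). The DMSO list held 124962 peaks, of which 804 passed a q of at most 0.05, and the A939572 list held 35018 peaks, of which 6528 passed. Peaks with a q above 0.05 are called weak here. The number of reads is unknown, and the 2 lists differ across the genome in how many peaks pass and how wide they are, so the main counts are set beside the share of all coding genes with the same call. The part that this genome-wide difference plays in the values of the ribosomal protein genes was not tested. As a check of the cell type, 8 genes that mark T-lineage cells at this stage were looked up: 5 were covered over at least 50% of their body with DMSO and 7 with A939572. Bcl11b was covered over 94.0% and 100%, and Cd3e over 0% with DMSO and 100% with A939572 by a weak peak. Ptcra, the pre-TCR alpha chain that defines this stage, held weak peaks in both lists, over 18.1% and 47.1% of its body.

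Nearly every ribosomal protein gene lay under a strong H3K79me2 peak in the inhibitor library, and most held a peak, mainly a weak one, in the control library. In the A939572 list 82 of the 84 genes held a peak, against 51.4% of all coding genes, and 81 held one at q of at most 0.05, or 96.4%, against 34.7% of all coding genes. In the DMSO list 79 held a peak, against 55.3% of all coding genes, and 22 held one at q of at most 0.05, or 26.2%, against 3.92%. All 22 also held such a peak with A939572. Over all coding genes this overlap was counted for marked genes, as defined in the next paragraph. With peaks at q of at most 0.05, 292 coding genes were marked with DMSO and 292 in both lists. A full overlap at this q is therefore not particular to the ribosomal protein genes.

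A gene is called marked here where peaks cover at least 50% of its body. In the A939572 list 81 ribosomal protein genes were marked, 96.4% (95% Wilson interval 90.02 to 98.8, counting error over genes only), against 26.1% of all coding genes. In the DMSO list 43 were marked, 51.2% (40.7 to 61.6), against 5.47%. All 43 were marked in both lists, where the share over all coding genes was 4.36%. The A939572 list covered 58 of the genes from end to end, or 69.05%, against 6.89% of all coding genes (6.64% with peaks at q of at most 0.05, by which the same number of ribosomal protein genes, 58, was covered in full), and the DMSO list covered 4 (Rplp1, Rpl15, Rpl32l and Rps23), against 0.585%. The median covered percent was 50.5% with DMSO and 100% with A939572, while over all coding genes the medians were 2.24% and 0.446%. All but 1 of the 84 genes are under 10 kb, with a median of 3.18 kb against 17.2 kb for coding genes. Of 7925 coding genes under 10 kb, with a median of 3.70 kb, 509 (6.42%) were marked with DMSO and 1755 (22.1%) with A939572.

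Coverage exceeded that with DMSO by 25 points or more with A939572 for 62 of the 84 genes, against 30.1% of all coding genes, and the reverse held for 0, against 3.07%. The median difference was 43.6 points. Of the other 22 genes, 19 were marked with A939572 and differed by less than 25 points, and 18 of these were already covered over at least 75% of their body with DMSO, which leaves less than 25 points to gain. With peaks at q of at most 0.05 alone, 81 genes were marked with A939572 (19.6% of all coding genes) and 15 with DMSO (1.33%), and 75 had 25 points or more of extra coverage with A939572 (26.3%) and 0 with DMSO (0%). With the gene body extended by 1 kb on both sides, 20 genes were marked with DMSO (4.47%) and 79 with A939572 (25.2%). Over the first 1 kb of the 64 genes with a known strand, 51 were marked with DMSO and 60 with A939572. Over 17492 coding genes with a strand, the shares were 11.7% and 38.8%. In this window 25 of the 64 genes (39.1%) had 25 points or more of extra coverage with A939572, near the 35% of coding genes. The reverse held for 0 of the 64, against 3.74%.

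**Figure D1:**
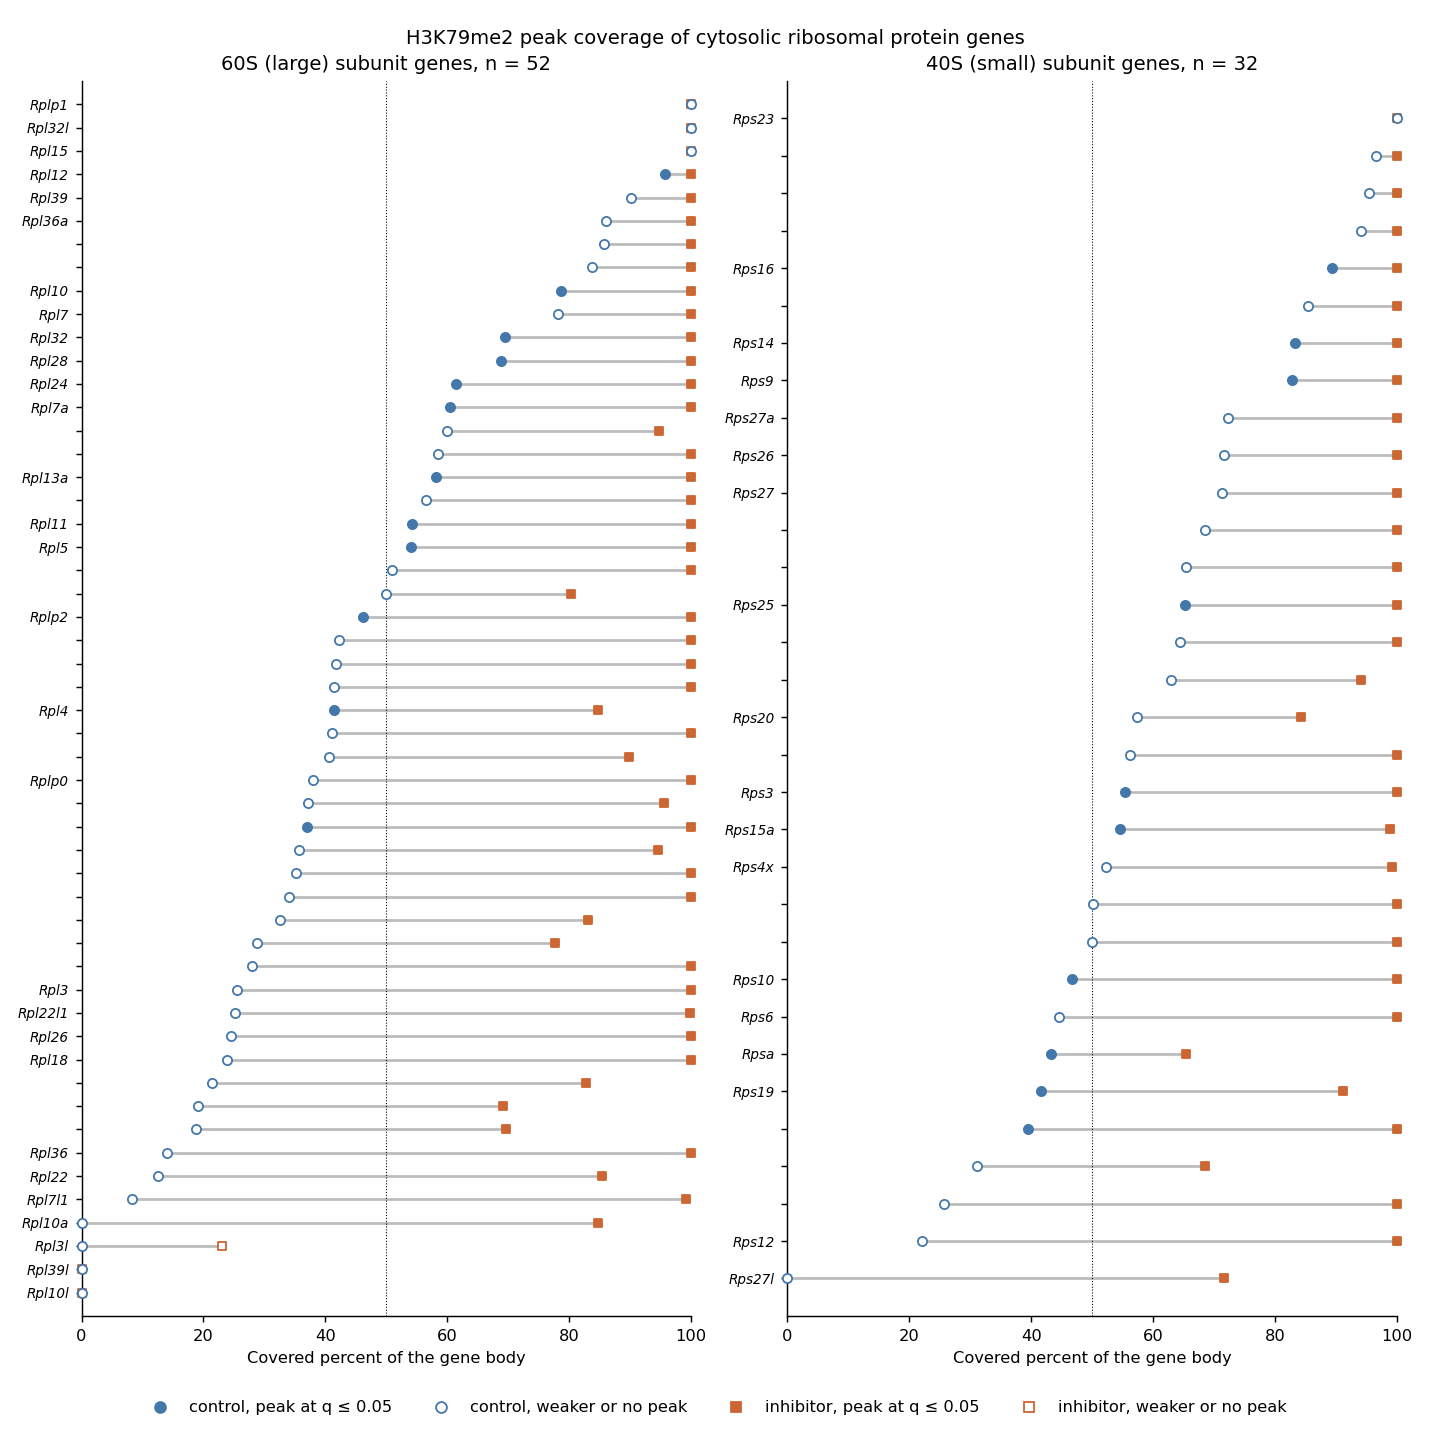
Covered percent of the gene body (horizontal axis) for each of 84 ribosomal protein genes, 52 of the large and 32 of the small subunit, in the control (circles) and inhibitor (squares) lists, with filled symbols for genes that hold a peak at q of at most 0.05 and names for genes described in the text. Control values spread from 0% to 100% and are mostly open, whereas 81 of 84 inhibitor values lie at 65.5% or above; the dotted line is the 50% threshold.

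The control library showed the H3K79me2 of these genes mainly where the inhibitor library showed it too. DMSO peaks covered 139 kb of the 308 kb of ribosomal protein gene sequence and A939572 peaks 280 kb. Of the control-covered bases, 99.9% also lay under an A939572 peak. The remaining 124 bases were all in Rps20, which encodes a protein of the small subunit. Over the bodies of all coding genes, 54.3% of the control-covered bases also lay under an A939572 peak. The median covered percent with A939572 was 0.446% over all coding genes, against 100% over the ribosomal protein genes. A939572 peaks covered 90.9% of all bases of the ribosomal protein genes, so a high overlap there does not show a shared position. The genes with an A939572 peak and no DMSO peak were Rpl10a, Rpl3l and Rps27l.

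The peaks differed in width and in strength relative to their own list. The 80 DMSO peaks over these genes had a median width of 1.73 kb (0.487 to 6.42 kb) and a median fold enrichment of 1.91. Over the whole control list the median width was 1.29 kb and the median fold 1.66. Among genes with a DMSO peak at q of at most 0.05, ribosomal protein genes had the lower fold. The median of the highest fold was 2.38 over 22 of them and 2.53 over 858 coding genes. The 82 A939572 peaks had a median width of 6.71 kb (1.92 to 82.6 kb) and a median fold of 3.42, against 1.66 over the whole inhibitor list and 2.81 over its peaks at q of at most 0.05. Over the whole list the median width was 14.1 kb for those stronger A939572 peaks and 1.76 kb for all A939572 peaks. By their medians, the peaks over ribosomal protein genes were narrower than the stronger peaks and wider than all peaks of the list. Their median fold was higher than both. Among genes with an A939572 peak, the median of the widest peak was 6.86 kb for ribosomal protein genes and 6.58 kb for coding genes under 10 kb. Among genes with such a peak at q of at most 0.05 it was 7.0 and 8.9 kb. Fold and q are the authors' values and are read within each list, never as a change between the lists.

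**Figure D2:**
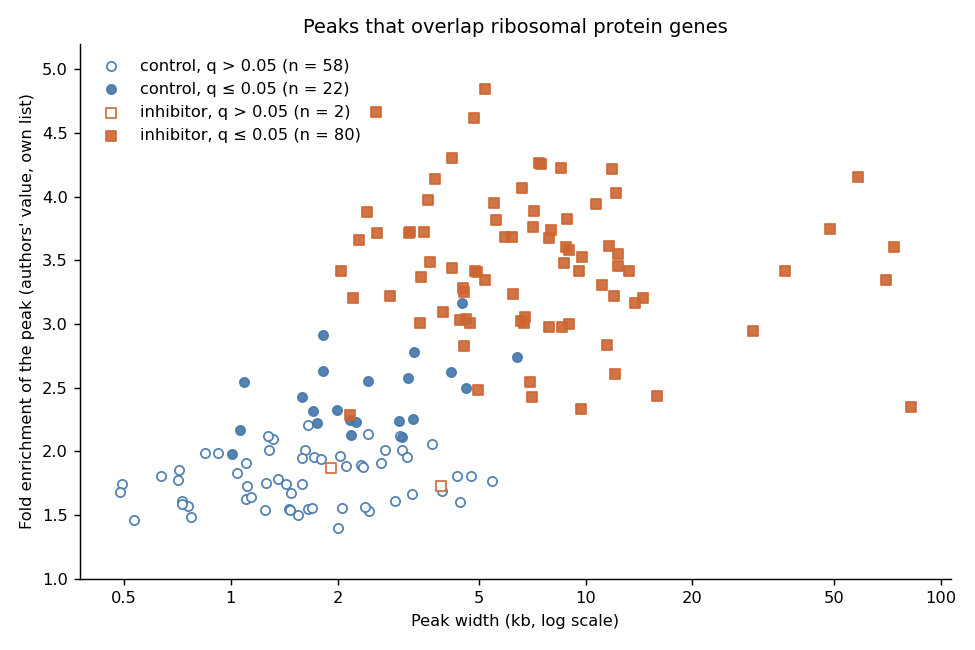
Width in kb (log axis) against the authors' fold enrichment for each peak that overlaps a ribosomal protein gene, 80 control peaks (circles) and 82 inhibitor peaks (squares), filled where q is at most 0.05. Control peaks gather at 0.487 to 6.42 kb with a fold of at most 3.17, and inhibitor peaks reach 82.6 kb, with a median fold of 3.42; folds are each list's own and are not a measured change.

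The position of the peaks along the gene could be read for 64 of the 84 genes, those whose strand is given in the RefSeq promoter table (GRCm38.p6, the assembly of mm10). Most DMSO peaks began inside these genes. Of 60 DMSO peaks, 49 had their upstream edge after the annotated start site, and the median edge lay 226 bp after it, with the middle 50% of edges between 95 and 357 bp after it. Their downstream edge lay at a median of 2.02 kb after the start. At the start site itself a DMSO peak covered 17.2% of the genes, at 0.5 kb inside 81.3%, at 0.75 kb 85.9%, at 2 kb 45.3% and at 5 kb 3.13%. Over all 17492 coding genes with a strand, the DMSO shares at the same 5 positions were 7.37%, 11.9%, 15.8%, 20.5% and 13.9%, so that at 5 kb, past the end of most ribosomal protein genes, their share was the lower one. Over 6412 such genes under 10 kb, the control shares were 6.86% at the start and 13.6% at 1 kb inside.

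A939572 peaks began before the start in most of the same genes. Of 63 A939572 peaks, 53 had their upstream edge at or before the start. The median edge position relative to the start, over all 63, was −1083 bp, with quartiles of −3037 and −32 bp. The downstream edge of these peaks lay at a median of 4.78 kb after the start. Both medians include peaks that reached other coding genes, such as the one over Rpl15, with its upstream edge at −63410 bp. Among peaks that reached no other coding gene, the upstream edge lay at −2628 bp for Rps7 and −79 bp for Rps19. No median was taken over those peaks alone, so −1083 bp is not shown to be typical of them. An A939572 peak covered 48.4% of the genes at 1 kb before the start, 81.3% at the start, 93.8% at 0.5 kb inside and 45.3% at 5 kb. Over all 17492 coding genes the A939572 shares at these positions were 22.4%, 29.2%, 38.9% and 31.5%, so the gap was smallest at 5 kb. The 250 bases before the start were covered in full in 39 of the 64 genes with A939572, against 26.8% of coding genes, and in 11 with DMSO, against 6.89%. Of the 64 starts, 54 coincide with the end of the gene model.

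**Figure D3:**
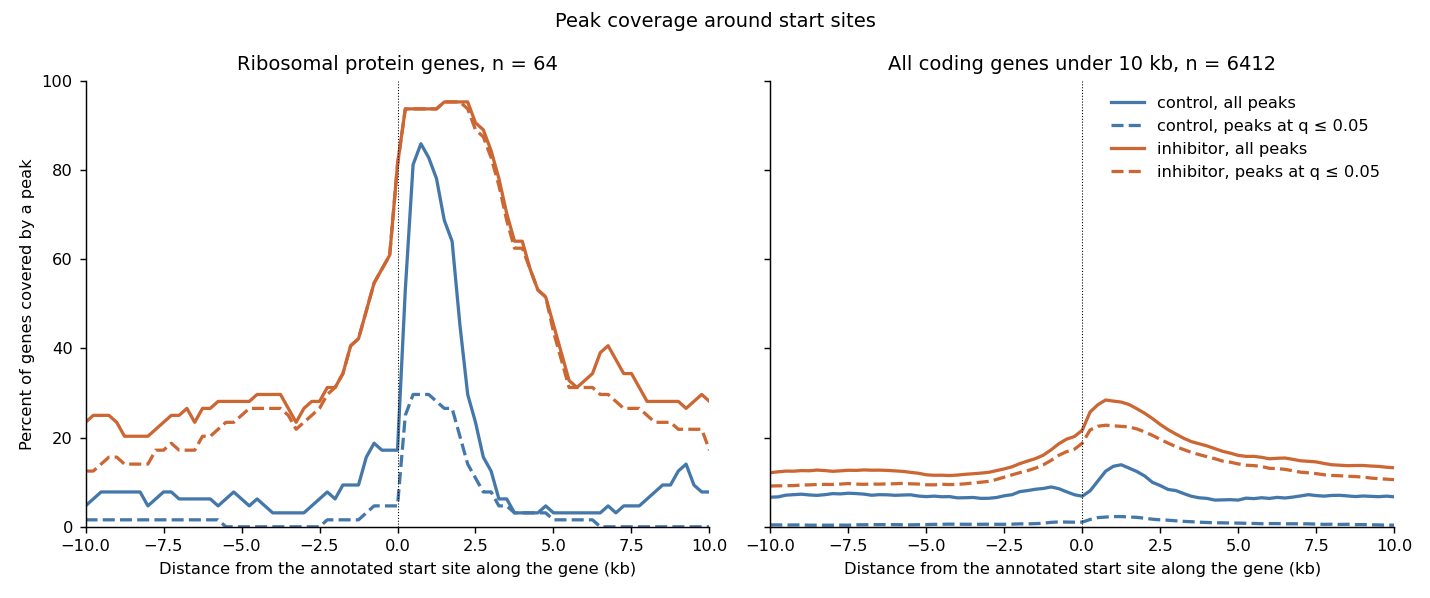
Percent of genes covered by a peak (vertical axis) at each distance in kb from the annotated start site, along the direction of transcription, for 64 ribosomal protein genes (left) and 6412 coding genes under 10 kb (right), with all peaks (solid) and peaks at q of at most 0.05 (dashed). Control coverage of the ribosomal protein genes climbs from 17.2% at the start to 85.9% at 0.75 kb and is at 3.13% by 5 kb, and inhibitor coverage is at 81.3% at the start and extends both ways.

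The letters at the start sites bear on which of these genes carry the 5′ TOP and the known promoter motifs. The following windows run from 25 bases before to 5 bases into the transcript, with the transcribed bases in capitals, and show 2 genes that begin with a TOP (Rps6 and Rps27), Rpl22, and 2 paralogs that hold no peak (Rpl10l and Rpl39l):
Rps6, chr4:86857363-86857392, minus strand: gccctgggttaagcggaagtcgggcCTCTT
Rps27, chr3:90213644-90213673, minus strand: aaggaacaggatttccgctttcgctCCTTT
Rpl22, chr4:152324411-152324440, plus strand: tgaatatcagcgctgcttctggaatGTTCC
Rpl10l, chr12:66284397-66284426, minus strand: gtaacagaaatttggcctccattttGCGGC
Rpl39l, chr16:10170203-10170232, plus strand: ctctccctagctcccaggcctttccGGATT

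A C at the annotated start followed by 4 pyrimidines was found in 13 of 64 ribosomal protein genes, 20.3% (95% Wilson interval 12.3 to 31.7), against 2.17% of 17492 coding promoters. The annotated start can lie a few bases from the start used in these cells, so this is a count of annotated letters. The motif CCGGAAG, the core bound by ETS factors such as GABP, was searched on both strands over the 300 bases from 250 before to 50 after the start. It was found in 25 of the 64, 39.1%, against 11.9% of promoters. AAGATGG, the core of the YY1 motif, was found on either strand in 10 (15.6% against 6.35%). TATAAA was found in 7 (10.9% against 8.99%) and the E-box CACGTG in 5 (7.81% against 7.91%). TATAAA was searched on the coding strand, and CACGTG is its own complement. CCGGAAG and AAGATGG can overlap by the letters AAG, and a match describes sequence, not binding.

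Coverage was counted in genes with and without these letters. Of the 13 genes with a TOP start, 7 were marked with DMSO and 13 with A939572, and of the 51 without, 24 and 48. Of the 25 genes with CCGGAAG, 12 were marked with DMSO and 24 with A939572, and of the 39 without, 19 and 37. Of the 7 genes with TATAAA, 5 were marked with DMSO and 0 held a DMSO peak at q of at most 0.05, and of the 57 without, 26 and 19. Of the 10 genes with AAGATGG, 6 were marked with DMSO, and of the 54 without, 25. Of the 5 genes with CACGTG, 1 was marked with DMSO, and of the 59 without, 30. All genes with any of these last 3 motifs were marked with A939572. So were 54 of the 57 genes without TATAAA, 51 of the 54 without AAGATGG and 56 of the 59 without CACGTG. The gene with CCGGAAG that was not marked with A939572 was Rpl39l. The 250 bases upstream of Rps6, which was marked with A939572, and of Rpl39l, which held no peak, are shown with each CCGGAAG or AAGATGG, on either strand, in capitals:
Rps6, chr4:86857368-86857617, minus strand: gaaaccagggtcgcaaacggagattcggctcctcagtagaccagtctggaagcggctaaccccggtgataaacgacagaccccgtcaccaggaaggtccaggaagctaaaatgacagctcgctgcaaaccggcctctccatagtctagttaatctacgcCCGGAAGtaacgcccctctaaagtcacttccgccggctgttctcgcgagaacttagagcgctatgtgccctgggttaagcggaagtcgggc
Rpl39l, chr16:10169978-10170227, plus strand: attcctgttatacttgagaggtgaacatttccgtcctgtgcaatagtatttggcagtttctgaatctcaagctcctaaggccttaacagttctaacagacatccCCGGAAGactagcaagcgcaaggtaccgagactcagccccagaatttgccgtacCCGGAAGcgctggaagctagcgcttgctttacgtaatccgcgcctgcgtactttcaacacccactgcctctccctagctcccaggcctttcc

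Among genes of the small subunit, all 32 were marked with A939572 and 22 with DMSO, 68.8% (95% Wilson interval 51.4 to 82.0). Rps14 (chromosome 18, 60774596 to 60778546), whose loss underlies the anaemia of the 5q- syndrome, was covered over 83.4% with DMSO and 100% with A939572. Its DMSO peak spanned 3.29 kb with a −log10 q of 5.55, the highest of the small subunit, and its A939572 peak 8.50 kb. Rps16 and Rps9, which like Rps14 held strong DMSO peaks, were covered over 89.4% and 82.8% with DMSO and over 100% each with A939572. Rps3, a protein at the mRNA entry channel of the 40S subunit, was covered over 55.3% and 100%, and Rps15a, the longest of the 84 genes at 11.8 kb, over 54.5% and 98.9%. The A939572 peak over Rps15a spanned 48.9 kb, with 76.2% of it outside the gene, and reached Arl6ip1 and Smg1.

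Rps6, the substrate of S6 kinase (chromosome 4, 86854099 to 86857367), was covered over 44.6% by 1 weak DMSO peak of 1.46 kb that began 553 bp after the start, and over 100% by an A939572 peak of 7.08 kb. Rps19, the gene most often mutated in Diamond-Blackfan anaemia (chromosome 7, 24884592 to 24889811), was covered over 41.6% by a strong DMSO peak of 2.17 kb and over 91.2% by an A939572 peak of 4.84 kb. That A939572 peak had a fold of 4.62 and lay almost wholly inside the gene, with 1.63% of its length outside. Rpsa, which also encodes the laminin receptor, was the least covered of the 81 marked genes with A939572, at 65.5%, with 43.3% with DMSO. Rps27a, a ubiquitin fusion, was covered over 72.2% and 100%, but it overlaps another coding gene.

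Among genes of the large subunit, 49 of 52 were marked with A939572 and 21 with DMSO, 40.4% (28.2 to 53.9). Without 7 paralogs whose symbols end in l or l and a digit, of which 6 belong to the large subunit, the control counts were 20 of 46 large (43.5%, 30.2 to 57.8) and 22 of 31 small subunit genes (71.0%, 53.4 to 83.9). The intervals of the 2 subunits overlap, and with 1 library the difference has no replicate check. At q of at most 0.05 the DMSO list marked 9 large and 6 small subunit genes. The median difference was 49.0 points for the large and 34.7 points for the small subunit, and the median gene length was 3.18 kb and 3.11 kb.

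Rpl4, a protein of the exit tunnel (chromosome 9, 64173387 to 64178562), held the strongest DMSO peak over any of the 84 genes. That peak spanned 4.49 kb with a fold of 3.17 and a −log10 q of 9.91, and 52.3% of it lay outside Rpl4 and reached its neighbour Zwilch. Rpl4 was covered over 41.4% with DMSO and 84.8% with A939572. Rpl5 and Rpl11, which with 5S RNA bind and restrain Mdm2, both held strong peaks in each list. Rpl5 was covered over 54.0% and 100%, and Rpl11 over 54.2% and 100%. The A939572 peak over Rpl5 spanned 29.6 kb and reached Dipk1a, which overlaps Rpl5, so the coverage of the 2 genes cannot be told apart.

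The genes of the stalk, the flexible arm that recruits translation factors, showed the range of control values. Rplp0 was covered over 38.0% by a weak DMSO peak, Rplp2 over 46.1% by a strong one and Rplp1, the shortest of them at 1.23 kb, over 100% by a weak one. All 3 were covered over 100% with A939572. Across the 79 genes with a DMSO peak, the covered percent with DMSO was lower in longer genes (Spearman's rho −0.53), while the covered number of bases was higher (rho 0.42). The genes share 1 library, and the percent has the length as its denominator.

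The largest differences in favour of the A939572 list were at Rpl7l1 (8.35% and 99.1%), Rpl36 (14.1% and 100%), Rpl10a (0% and 84.7%) and Rps12 (22.1% and 100%). Rpl18, Rpl26, Rpl22l1 and Rpl3 followed with differences of 74.5 to 76.1 points. All 8 held an A939572 peak at q of at most 0.05, as did 81 of the 84 genes. None of the 8 held such a DMSO peak, which 22 of the 84 held. The 8 were picked by their difference, so these peaks in part restate that choice. Rpl3, a protein of the peptidyl transferase centre (chromosome 15, 80077781 to 80083406), was covered over 25.5% by 1 DMSO peak of 1.43 kb and over 100% by an A939572 peak of 6.24 kb.

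Rpl22 (chromosome 4, 152324436 to 152334082) is among the longest of the genes at 9.65 kb. In the DMSO list it held 2 weak peaks of 0.708 and 0.495 kb, which covered 12.5% of it. In the A939572 list 1 peak of 8.81 kb (152325838 to 152334646) covered 85.5%, with a fold of 3.60 and a −log10 q of 7.16. That peak began 1.40 kb after the start, so the first 500 bases of Rpl22 were uncovered in both lists. Its paralog Rpl22l1 (chromosome 3, 28805508 to 28807424) was covered over 25.2% by a weak DMSO peak and over 99.8% by an A939572 peak of 2.21 kb with a −log10 q of 6.93.

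In the A939572 list, paralogs known for expression in other tissues were the genes with least coverage. Rpl10l, an intronless copy of Rpl10 known from the testis (chromosome 12, 66283379 to 66284401), and Rpl39l, also known from the testis (chromosome 16, 10170197 to 10174911), held no peak in either list. Rpl3l, the form of skeletal muscle and heart (chromosome 17, 24727826 to 24736143), held no DMSO peak and 1 weak A939572 peak of 1.92 kb over 23.0% of its body. These 3 were the genes of the 84 not marked with A939572. Their widely expressed counterparts were covered over 78.6% (Rpl10), 90.1% (Rpl39) and 25.5% (Rpl3) with DMSO and over 100% each with A939572.

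Other paralogs were marked. Rps27l, a gene induced by p53, held no DMSO peak and was covered over 71.6% with A939572 by a peak of 3.51 kb with a −log10 q of 11.5, while Rps27 was covered over 71.3% and 100%. Rpl7l1 was covered over 99.1% with A939572 and Rpl7 over 78.2% with DMSO and 100% with A939572. Rpl32l, a model of 0.592 kb inside Map7, was covered over 100% in both lists, by a weak DMSO peak and by an A939572 peak of 82.6 kb of which 99.3% lay outside it, so its coverage cannot be told apart from that of Map7.

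**Figure D4:**
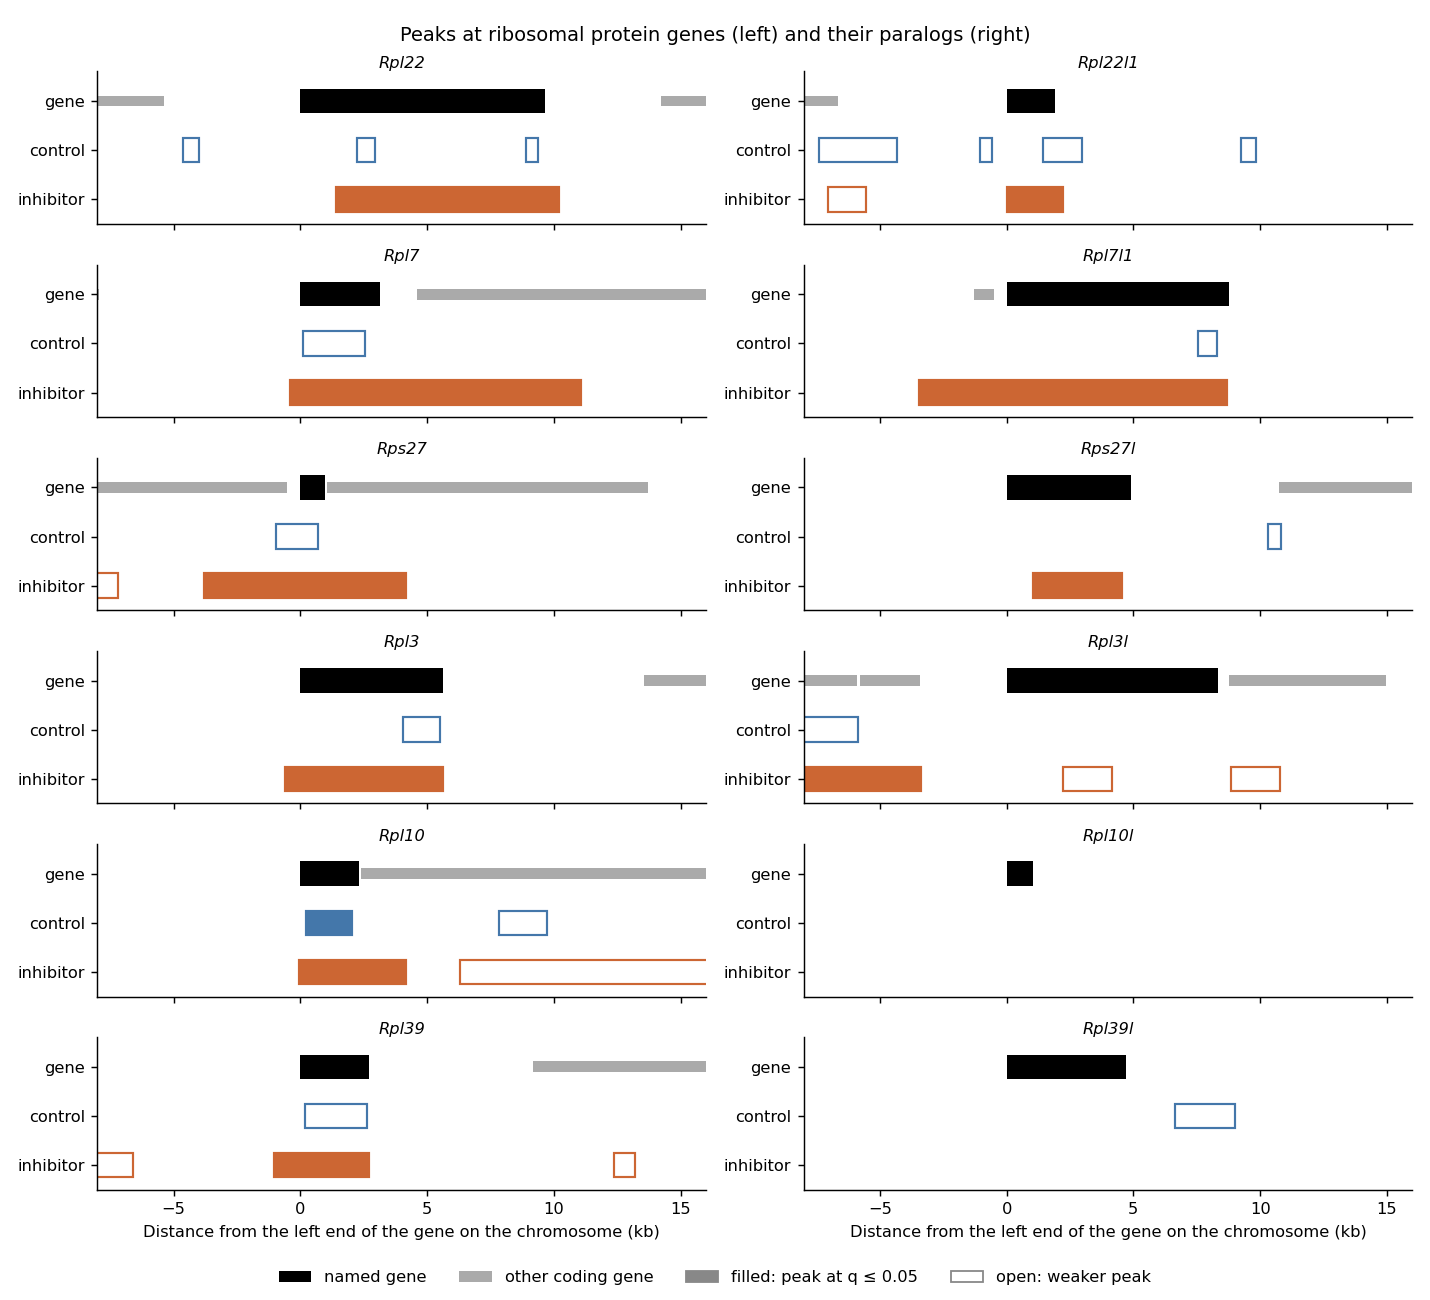
Peaks at 6 ribosomal protein genes (left column) and their paralogs (right column), drawn to scale as distance in kb from the left end of the gene on the chromosome, with control and inhibitor peaks filled where q is at most 0.05 and open where weaker. Rpl10l and Rpl39l have no peak over their bodies and Rpl3l has a single weak inhibitor peak, while every other gene shown lies under a strong inhibitor peak. Peaks were looked up only near each gene, so the far right of the axis can be empty for short genes.

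Some values belong in part to neighbours. The A939572 peaks over 42 of the 82 genes reached no other coding gene, and 41 of these 42 genes were marked; the exception was Rpl3l. For 26 genes the peaks reached 1 other coding gene and for 14 genes 2 or more, most of all at Rpl7a, whose peak of 36.6 kb covered the Surf gene cluster. The widest A939572 peaks lay over Rpl32l, Rpl24 (73.9 kb), Rpl15 (70.2 kb) and Rps10 (58.6 kb), with 91.8% to 99.3% of their length outside the named gene. The DMSO peaks over 71 of 79 genes reached no other coding gene. When the 12 genes that overlap another coding gene were left out, 37 of 72 were marked with DMSO and 69 with A939572.

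The peaks of highest fold were not the widest. The highest inhibitor folds were at Rps4x (4.85), Rps26 (4.66), Rps19 (4.62) and Rpl10 (4.30), in peaks of 2.57 to 5.19 kb. Rps26 also had the highest −log10 q, 18.8, in a peak of 2.57 kb over a gene of 1.98 kb. Across the 79 genes with a DMSO peak, the highest control fold and the highest inhibitor fold of a gene had a Spearman's rho of 0.34. The points share the same 2 libraries and the sequence of the same genes, and the value is a description.

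The 84 genes lie on 19 chromosomes, with 14 on chromosome 7, 8 on chromosome 17 and 4 on the X chromosome. The 4 X-linked genes (Rpl10, Rpl36a, Rpl39 and Rps4x) were all marked in both lists, with control values of 52.3% to 90.1%. Of 966 coding genes on the X chromosome, 15 (1.55%) were marked with DMSO and 130 (13.5%) with A939572. Within 30 of the 84 genes lie 59 snoRNA genes, 12.8% of the 461 snoRNA genes within coding genes. Of these 30 hosts, 18 were marked with DMSO and 13 held a DMSO peak at q of at most 0.05. Of the 54 genes without a snoRNA, 25 were marked and 9 held such a peak. The median length was 3.18 kb in hosts and 3.22 kb in the others.

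Ribosomal proteins whose symbols the rule does not take gave like values. Fau, which encodes a ribosomal protein fused to a ubiquitin-like protein, was covered over 67.0% by a weak DMSO peak and over 100% with A939572. Rack1, a scaffold on the 40S subunit, was covered over 54.1% by a strong DMSO peak and over 100%, and Rpl36al over 100% in both lists. All 3 were marked in both lists.

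Other genes of the translation machinery were counted from lists made by hand. Of 16 translation factors and TOP mRNAs, 4 were marked with DMSO and 16 with A939572, and 8 held a DMSO peak at q of at most 0.05. With A939572 coverage was higher by 25 points or more for 15 of them, and with DMSO for 0. Over all coding genes, 5.47% were marked with DMSO and 26.1% with A939572, and 3.92% held a DMSO peak at that q. Coverage was higher by 25 points or more for 30.1% with A939572 and for 3.07% with DMSO. These shares also serve for the gene groups that follow. Eef1b2, a subunit of the elongation factor eEF1, was covered over 0% and 100%, and Tpt1 over 23.3% and 100%.

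Of 33 ribosome biogenesis genes, 3 were marked with DMSO and 23 with A939572, and 25 were at least 25 points higher with A939572 and 0 with DMSO. Nhp2, a subunit of H/ACA particles, Polr1c, a subunit of RNA polymerases I and III, and Bysl, a 40S assembly factor, were each covered over 0% and 100%. Of 17 regulators of ribosomal protein synthesis, 3 were marked with DMSO (Myc, Yy1 and Eif4ebp2) and 16 with A939572, and 12 were at least 25 points higher with A939572 and 0 with DMSO. Mycn was covered over 11.1% and 100%, and Eif4ebp1, a repressor of cap-dependent translation, over 5.93% and 84.1%. The exception with A939572 was Mtor, a gene of 109 kb, which was covered over 0.503% and 8.08%.

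Subunits of 2 other large particles were counted in the same way. Of 78 mitochondrial ribosomal protein genes, 3 (3.85%, 1.32 to 10.7) were marked with DMSO and 47 (60.3%, 49.2 to 70.4) with A939572. Of 39 proteasome subunit genes, 3 (7.69%, 2.65 to 20.3) and 30 (76.9%, 61.7 to 87.4) were marked. The median difference between the lists was 42.8 points for the mitochondrial ribosomal proteins and 51.9 points for the proteasome, against 43.6 points for the cytosolic ribosomal proteins. Median gene lengths were 7.69, 12.3 and 3.18 kb, and a peak of a given width covers a smaller percent of a longer gene. These are counts in 1 library per condition, with no test of the differences.

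**Figure D5:**
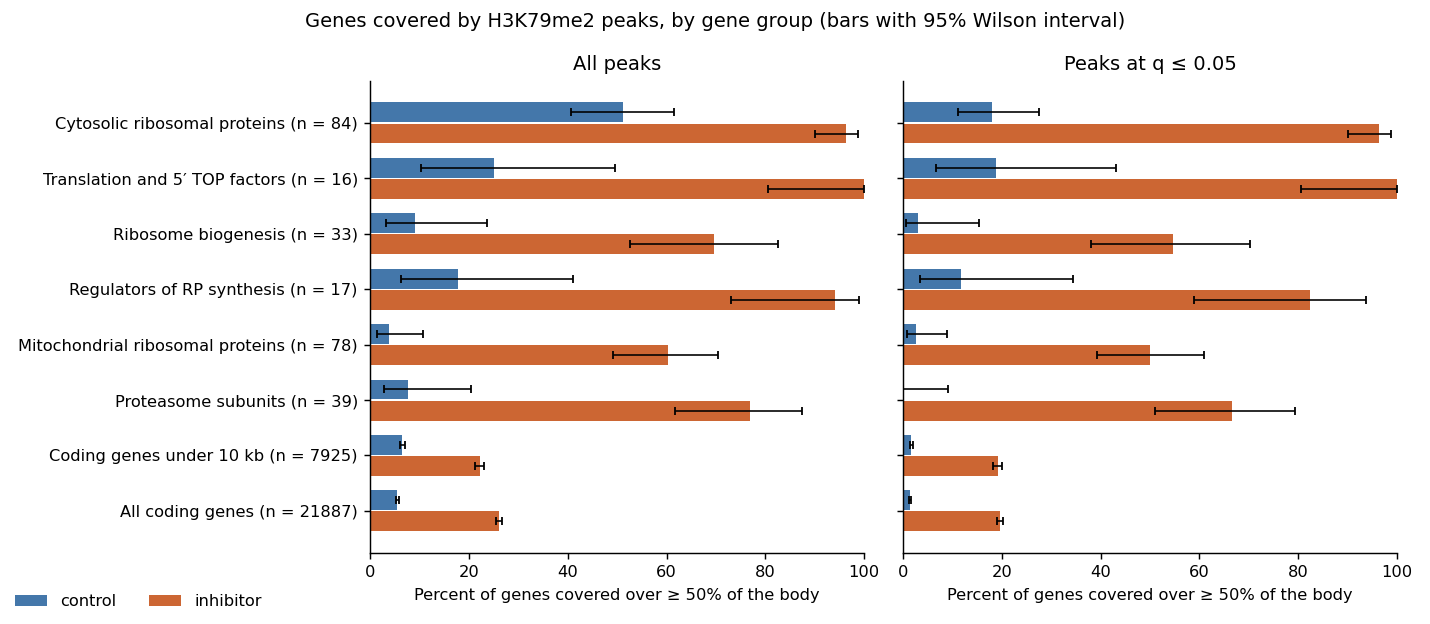
Percent of genes covered over at least 50% of their body in the control and inhibitor lists, by gene group, with all peaks (left) and with peaks at q of at most 0.05 (right); lines are 95% Wilson intervals over genes. The cytosolic ribosomal proteins stand at 51.2% and 96.4% with all peaks and at 17.9% and 96.4% at the stricter q, against 5.47% and 26.1%, then 1.33% and 19.6%, of all coding genes.

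The genes marked by strong DMSO peaks were counted last. Of the 292 coding genes marked with DMSO at q of at most 0.05, 15 were ribosomal protein genes, 5.14% of that list and 17.9% of the 84, while the 84 make up 0.384% of coding genes. Those 15 were Rpl5, Rpl7a, Rpl10, Rpl11, Rpl12, Rpl13a, Rpl24, Rpl28, Rpl32, Rps3, Rps9, Rps14, Rps15a, Rps16 and Rps25. Another 7 held a strong DMSO peak over less than 50% of the body, among them Rpl4, Rplp2, Rps19 and Rpsa.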

How the data were processed

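H3K79me2 ChIP-seq peaks were taken from 2 broad peak lists, 1 per condition, which the authors deposited as 1 file for each library. Per the submitters' processing notes, the tools were BWA and MACS2 2.1.0 and the build was mm10. Not given in the sources used here: the caller's options and whether the inputs were used. The deposited columns are a fold enrichment (a ratio), the −log10 of p and of q, and a score, which is −log10 q times 10 without its decimals. The authors' lists give no read counts, so depth is unknown and no interval covers it.

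Peaks were merged and intersected with RefSeq gene bodies of GRCm38.p6 with Python (3.11.15) and its packages pandas (2.3.3), numpy (2.4.6), matplotlib (3.10.9) and scipy (1.17.1), and the coverage functions were tested on simulated peaks. Strands and promoters came from the RefSeq promoter table, which held 64 of the 84 genes. The genes described, the lists and the rule for named genes (fixed genes, the extremes of difference, q, width and fold, and genes without a peak) were chosen with earlier results of these data known; other genes named to complete a count were chosen after their values were seen. Some results on single genes are not reported here. Of 34 biogenesis entries, 33 were measured. Wilson intervals (95%) treat genes as independent. The alternatives were other peak thresholds, gene windows, call thresholds, merging, and sets of genes. No test was possible with 1 library per condition.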

Additional observations from a re-analysis of the deposited data

How the results depend on the processing

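Of 93 recomputed values, 61 stayed within 1.5 times of the share of genes or within the 95% interval of a median, and 32 moved. The median difference did not change sign under any alternative. Counts and covered percents cannot be negative, so no change of sign was possible for them. With peaks at q of at most 0.05 the DMSO list marked 15 genes and shared 15 with the A939572 list, its median covered percent was 0, and the median difference was 99.1 points. With −log10 q of at least 5 these were 1, 1, 0 and 100, and with a fold of at least 3 they were 0, 0, 0 and 100. Extending the gene body by 1 kb gave 20 genes marked with DMSO, 20 in both, and medians of 31.7% and 88.2%. At the better covered 1 kb end the DMSO list marked 66 genes and 66 in both, with a control median of 78.15%, 32 genes at least 25 points higher with A939572 and a median difference of 20.4 points. Over the first 1 kb from the start, 51 of 64 genes (79.7%) were marked with DMSO and 51 in both. There 25 of 64 genes (39.1%) were at least 25 points higher with A939572, near the 35% of coding genes. The control median was 76.2% and the median difference 21.8 points. With any covered base, 79 genes were marked with DMSO and 79 in both; with 80% of the body, 16 and 16. At 50 points, 30 genes were higher with A939572. The mean inhibitor percent was 92.7. These windows and thresholds are part of each alternative's construction. Leaving out overlapping genes or the 7 paralogs moved none of the 8 results. Merging peaks within 1 kb changed no gene's value, and restricting the DMSO list to as many covered bases as the A939572 list left out 1114 peaks, of which 0 lay over these genes, so neither bears on stability. No paired analysis was possible because each condition has 1 library and no replicate number. Without read depth, a gene with no peak cannot be told apart from a gene whose signal was too low to call.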

Other observations

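Pseudogenes of ribosomal protein genes were looked up after the values above had been seen. They were picked by symbol alone: 318 RefSeq pseudogene entries carry a symbol of the family's pattern followed by -ps, mostly with a number. Their lengths run from 200 to 41903 bp with a median of 531 bp, and whether they are processed copies was not examined. Of the 73 that lie within or across a coding gene, 26 were covered over at least 50% of their length with A939572, 18 of them by peaks at q of at most 0.05, and 9 with DMSO, 3 of them at that q. Of the 245 outside coding genes, 2 were covered over at least 50% with A939572, Rpl5-ps2 (54.6%) and Rps15a-ps4 (59.8%), both by weak peaks. At q of at most 0.05, 0 of the 245 held an A939572 peak, which allows a share of up to 1.22%. With DMSO 15 of the 245 were covered over at least 50%, all by weak peaks and all with 0% with A939572. Over all coding genes, 5.47% were covered over at least 50% with DMSO and 26.1% with A939572. Among coding genes under 10 kb the shares were 6.42% and 22.1%. Other sequence outside coding genes was not counted, so the DMSO count is not shown to be particular to these pseudogenes. At q of at most 0.05 the DMSO list touched 1 of the 245, Rpl21-ps9, over 10.6% of its length. Near-identical copies can share reads with the parent gene, and how the authors treated such reads is not given in the sources used here.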
